A study of Bos taurus with 22 samples.

Results

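The transcripts described here code for subunits of the mitochondrial respiratory chain and of ATP synthase in circulating white blood cells of heifers. Members were taken by symbol from the 1401 rows available here of the study's gene listing, which is ordered by the p-value for fertility. A gene entered when its symbol began with NDUF, SDHA to SDHD, UQC, COX followed by a digit, or ATP5, or was CYC1 or CYCS. This gave 35 of the 27607 genes of the count table: 16 subunits of complex I, 7 of complex III, 4 of complex IV, 7 of complex V and 1 assembly factor, NDUFAF8. No row available here carried a symbol of complex II or CYCS. The first member in the listing was NDUFA2, in row 3, and the last was NDUFB9, in row 1299. Their log2 differences, Fertile minus Sub-Fertile, were 0.17 (standard error 0.049) for NDUFA2 and 0.073 (standard error 0.047) for NDUFB9. Genes past the available rows carry no symbol here, so the values of members just outside could not be given. The members were thus selected on their difference between Fertile and Sub-Fertile heifers, and that contrast is described without a test.

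The respiratory chain passes electrons from NADH and succinate to oxygen and pumps protons across the inner mitochondrial membrane. Complex I oxidises NADH, complex III passes electrons from ubiquinol to cytochrome c, and complex IV reduces oxygen. Complex V, the ATP synthase, lets the protons flow back through its ring of c subunits and makes ATP in its F1 head. Most subunits are coded in the nucleus and a few in mitochondrial DNA, and white blood cells differ by type in how far they rely on this pathway, with neutrophils known for glycolysis and few mitochondria.

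The 22 heifers fell into 4 groups, with 1 library of white blood cells from each heifer: 5 Angus Fertile (heifers 18 to 22), 7 Angus Sub-Fertile (heifers 11 to 17), 5 Holstein Fertile (heifers 6 to 10) and 5 Holstein Sub-Fertile (heifers 1 to 5). All were purebred, and blood was drawn at the first artificial insemination after estrus synchronisation with GnRH, a progesterone device (CIDR) and prostaglandin F2 alpha. Fertile heifers calved from that insemination. Sub-Fertile Angus heifers were not pregnant after 2 inseminations and a bull, and Sub-Fertile Holstein heifers needed at least 4 inseminations. Angus heifers averaged 14 months of age and carried the device for 7 days, and Holstein heifers averaged 12 months and carried it for 5 days, so breed, age and protocol cannot be told apart.

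The libraries held 12182400 to 49228035 counts (median 23158374), and all 35 members passed the filter on low counts that left 13535 genes, with 111 to 25967 counts each per heifer. Depth differed by breed: the median total was 43397234 counts in Angus Fertile and 28354518 in Angus Sub-Fertile heifers. It was 17180109 in Holstein Fertile and 17198877 in Holstein Sub-Fertile heifers, though the ranges overlapped. Levels are given as CPM, counts per 1000000 counts of the same heifer. Although no label links them, the libraries of 8 pairs were nearer to each other than those of the rest. In number order, heifer 1 paired with 11, 5 with 6, 7 with 16, 8 with 12, 10 with 18, 13 with 22, 14 with 20 and 15 with 19. Their biological coefficients of variation were 0.0378 to 0.0829, against 0.0981 to 0.261 (median 0.174) in the other 223 pairings. No close pair lay within 1 group, 6 linked heifers of unlike phenotype and 4 linked the breeds. Whether the libraries of a pair share RNA or had labels exchanged was not tested. Each heifer was counted as labelled, so p-values take the heifers of a pair as independent. The medians and counts of members for fertility, breed and the interaction are also given with the pairs as blocks, a fit in which the 6 heifers in no close pair add nothing to a difference. In bulk RNA of mixed cells, fewer cells of a type and less RNA per cell cannot be told apart.

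The member transcripts covered a wide range of levels per length, that is CPM per kilobase of the annotated transcript, and the catalytic head of ATP synthase stood at the top. ATP5F1B, the beta subunit that holds the catalytic sites (chromosome 5, 56789495 to 56795018 in ARS-UCD1.2), had 292 ± 22.2 CPM per kilobase (SD over 22 heifers). COX6B1, a complex IV subunit on the side where cytochrome c docks (chromosome 18, 46378362 to 46387003), followed with 241 ± 19.8. NDUFAF8, which assists the assembly of complex I (chromosome 19, 51480485 to 51483148), was lowest with 9.76 ± 1.08. The gap from each of the 2 highest members to the next within its complex exceeded the spread between heifers.

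By complex, the median level per length was 53.2 CPM per kilobase in complex I, 99.5 in complex III, 102 in complex IV and 122 in complex V. Complex I was headed by NDUFA1, a small accessory subunit of its membrane arm on chromosome X (4220533 to 4223698), with 165 ± 12.4, and NDUFA5, an accessory subunit of the peripheral arm, was at the bottom with 26.8 ± 3.38. The complex III members were the most even: from the core protein UQCRC1 (118 ± 9.65) to the core protein UQCRC2 (61.2 ± 5.94) the ratio was 1.93. It was 6.16 in complex I, 2.94 in complex IV and 9.15 in complex V. These values cover the members alone, 34 of 82 subunit genes listed for the pathway. The number of members differs by complex, and such a ratio depends on it. Neighbours in the order of levels lay within 1 SD of each other in 5 of 6 steps in complex III, 8 of 15 in complex I, 1 of 3 in complex IV and 2 of 6 in complex V. COX7B and COX5B, the lowest members of complex IV per length, were such neighbours, with 84.5 ± 9.81 and 81.9 ± 5.97. The order depends on the length used, that of the longest annotated transcript. By CPM alone COX5B was the highest member of complex IV, with 141 ± 10.3 CPM against 131 ± 10.8 CPM in COX6B1.

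ATP5MC1 and ATP5MC3 code for the same mature c subunit of the ring of ATP synthase with different import sequences, and their transcripts differed in level. ATP5MC3 (chromosome 2, 21688062 to 21691528) had 131 ± 13.6 CPM per kilobase and ATP5MC1 (chromosome 19, 37618130 to 37621478) 31.9 ± 4.65. The ratio of ATP5MC3 to ATP5MC1 per length was above 1 in each of the 22 heifers, from 3.45 to 5.00 (mean 4.15 ± 0.41 SD). Reads of related genes and processed copies may be split between rows, and the annotation gives 1 length per gene, that of its longest transcript.

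**Figure D1:**
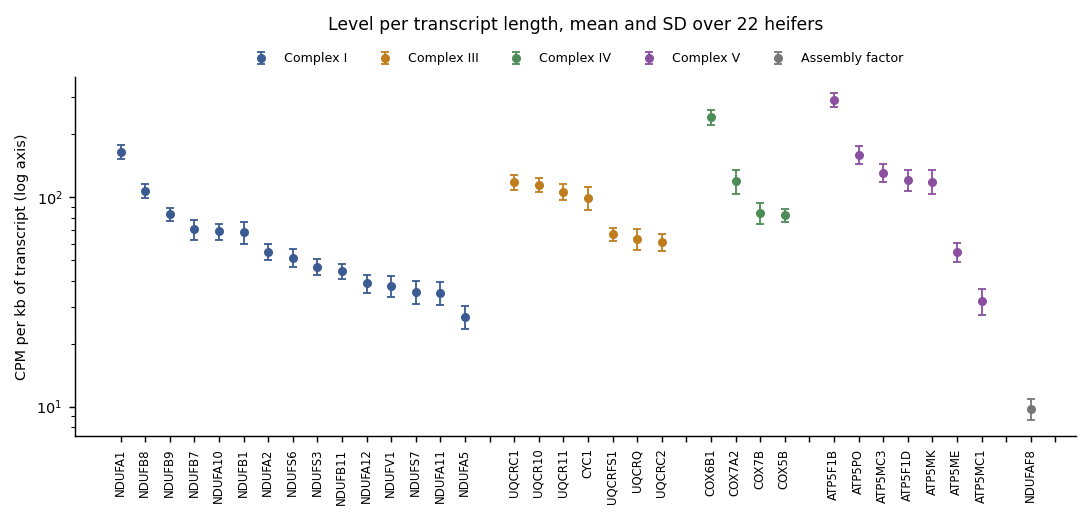
Level of 34 of the 35 member transcripts in CPM per kilobase of annotated transcript (log axis), as the mean (point) and SD (bar) over 22 heifers, by complex and in falling order. ATP5F1B leads at 292 and NDUFAF8 is lowest at 9.76.

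Summed over the 35 members, the level was 3301 ± 243 CPM in Angus Fertile (SD, n = 5), 3110 ± 157 in Angus Sub-Fertile (n = 7), 3253 ± 241 in Holstein Fertile (n = 5) and 2952 ± 144 in Holstein Sub-Fertile heifers (n = 5). None of the 5 Holstein Sub-Fertile heifers lay above the median of all heifers, whereas 4, 4 and 3 heifers of the other groups did, in that order. The groups overlapped: the highest Holstein Sub-Fertile heifer had 3103 CPM, and the lowest of the other groups had 3093 in Angus Fertile, 2827 in Angus Sub-Fertile and 3057 in Holstein Fertile.

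The complexes kept this order of groups in part. The complex I members summed to 1054 ± 54.3 CPM in Angus Fertile, 983 ± 63.8 in Angus Sub-Fertile, 1011 ± 84.2 in Holstein Fertile and 922 ± 35.4 in Holstein Sub-Fertile heifers. Complex III followed with 647 ± 37.8, 602 ± 35.6, 621 ± 65.1 and 570 ± 14.7 CPM. In complexes I and III all 5 Angus Fertile heifers and none of the Holstein Sub-Fertile heifers lay above the median of all heifers. The complex IV members summed to 455 ± 39.2, 439 ± 24.0, 466 ± 36.4 and 415 ± 32.1 CPM, and the complex V members to 1132 ± 120, 1074 ± 41.3, 1142 ± 71.8 and 1033 ± 69.0 CPM. There the Holstein Fertile group had the highest mean, by less than 1 SD over Angus Fertile.

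**Figure D2:**
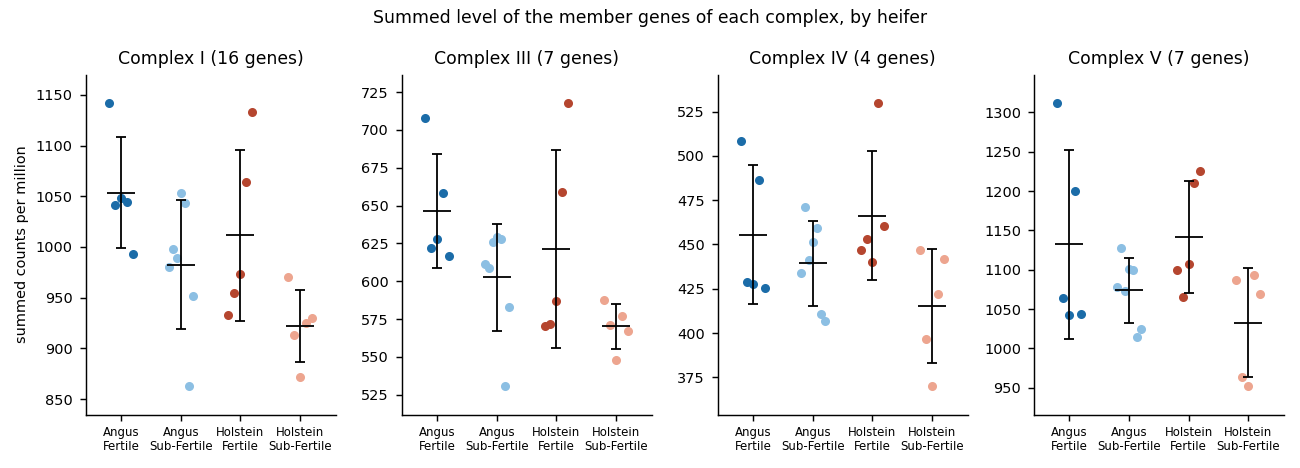
Summed CPM of the member genes of each complex in every heifer (points) by group, with the group mean and SD (bars). The vertical axes do not start at 0. In complexes I and III the 5 Holstein Sub-Fertile heifers lie below the median of all heifers.

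The differences between groups came with wide differences between heifers of 1 group. As a mean over the 35 members of the deviation of log2(CPM + 1) from each gene's mean, heifer 18 (Angus Fertile) stood at 0.21, heifer 10 (Holstein Fertile) at 0.19, heifer 9 (Holstein Fertile) at 0.16 and heifer 21 (Angus Fertile) at 0.10. These heifers were high throughout: 35 of 35 members were above their own mean in heifer 9, 34 in each of heifers 10 and 18, and 29 in heifer 21. At the other end were heifer 3 at −0.20, heifer 16 at −0.17 and heifer 2 at −0.14, with 0, 3 and 2 members above their own mean. Heifers 2 and 3 were Holstein Sub-Fertile and heifer 16 Angus Sub-Fertile. The other Fertile heifers lay between −0.043 and 0.037, within the range of the Sub-Fertile heifers, and the pooled SD within groups was 0.090.

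**Figure D3:**
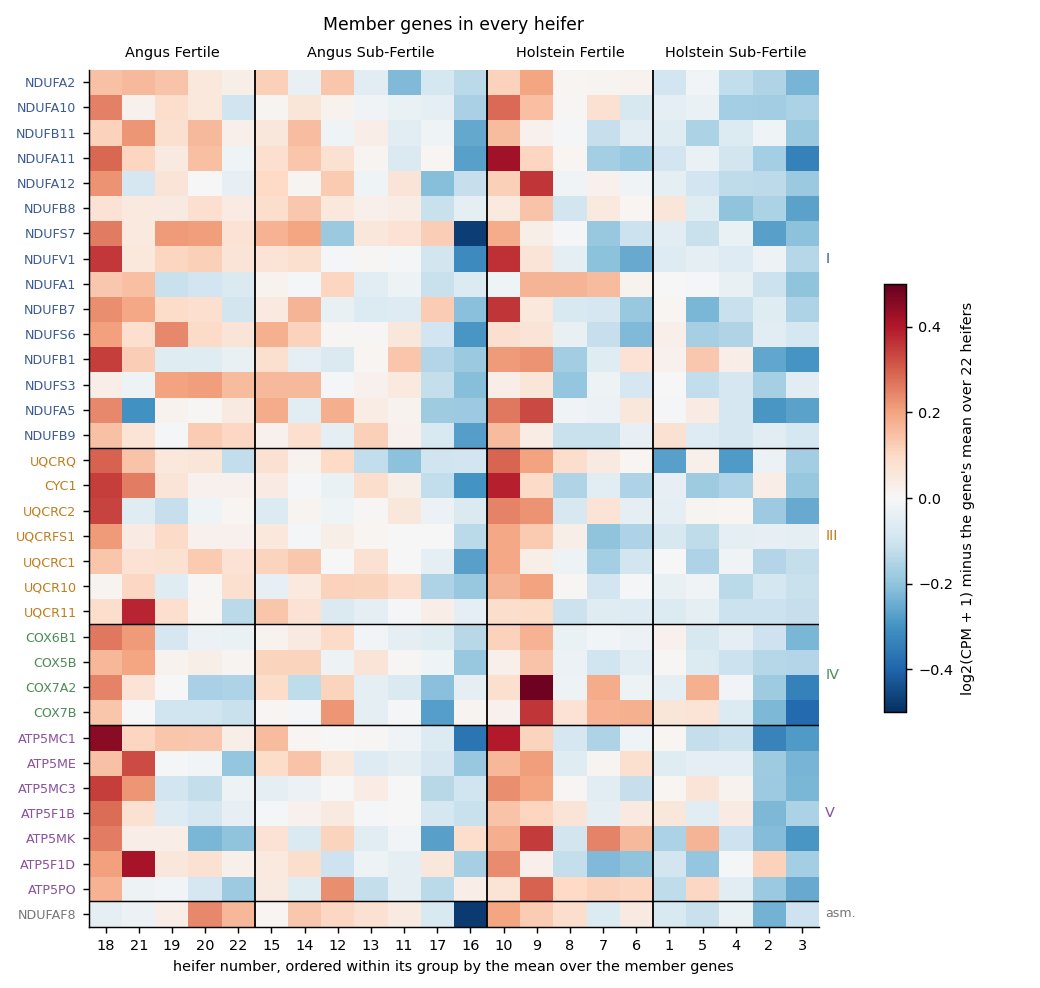
Deviation of log2(CPM + 1) from the gene's mean over 22 heifers, for 34 of the 35 member genes (rows, by complex) and each heifer (columns, by group), in colour from −0.5 to 0.5. Heifers 18, 10 and 9 are red and heifers 3, 2 and 16 blue over most rows.

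All 35 members had a higher fitted level in Fertile heifers, which is in part what the listing chose: 49% of all genes tested and 56.5% of the 1401 listed genes were higher in Fertile. The log2 differences were small, from 0.073 in NDUFB9 to 0.22 in ATP5MC1, with a median of 0.12 (all genes −0.0020). Taken within breeds, 33 of 35 were higher in Fertile Angus heifers (all genes 53.9%; median 0.090), the exceptions being COX7B (−0.024) and ATP5PO (−0.019), and 35 of 35 in Fertile Holstein heifers (all genes 48.6%; median 0.14).

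Among complex I members, NDUFA2, an accessory subunit of the peripheral arm (chromosome 7, 51778423 to 51780743), headed the listing. It had 33.4, 33.3, 31.3, 33.8 and 30.7 CPM in Angus Fertile heifers 18 to 22 and 25.7, 28.9 and 33.3 CPM as the lowest, median and highest of Angus Sub-Fertile heifers. It had 30.4, 30.4, 30.3, 34.7 and 32.7 CPM in Holstein Fertile heifers 6 to 10 and 28.1, 27.0, 25.4, 27.6 and 29.8 CPM in Holstein Sub-Fertile heifers 1 to 5. All Holstein Fertile heifers were above all Holstein Sub-Fertile heifers, while the Angus groups overlapped. NDUFA12, an accessory subunit of the peripheral arm, was the other member without overlap in Holstein heifers, with 36.2 to 47.2 CPM in Fertile and 32.1 to 35.5 CPM in Sub-Fertile heifers. Of all genes, 0.931% were separated in this direction in Holstein heifers and 0.421% in the other, and in Angus heifers 0.0517% and 0.0369%, with no member. The members were listed by this contrast, so their separation cannot be compared with that of all genes as a test.

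NDUFA10, an accessory subunit of the membrane arm (chromosome 3, 118884975 to 118923959), averaged 96.7 CPM in Fertile and 87.7 CPM in Sub-Fertile heifers, a log2 difference of 0.15 (standard error 0.048).

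In complex III, UQCRQ, a small subunit of the complex (chromosome 7, 44447301 to 44448594), had 39.0, 32.8, 32.9, 34.9 and 28.9 CPM in Angus Fertile heifers 18 to 22 and 27.3, 29.5 and 33.9 CPM as the lowest, median and highest of Angus Sub-Fertile heifers. In Holstein heifers it had 31.7, 32.6, 33.6, 36.4 and 38.9 CPM in Fertile heifers 6 to 10, and 25.9, 30.9, 27.9, 25.8 and 32.1 CPM in Sub-Fertile heifers 1 to 5. The groups overlapped in both breeds, in Holstein heifers through heifers 5 and 6 alone, which are a close pair. Its log2 difference was 0.20 (standard error 0.061). CYC1, the cytochrome c1 that hands electrons to cytochrome c (chromosome 14, 738124 to 740518), averaged 128 CPM in Fertile and 115 CPM in Sub-Fertile heifers, a log2 difference of 0.17 (standard error 0.065), and its highest levels were 157 CPM in heifer 10 and 153 CPM in heifer 18.

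In complex V, ATP5MC1 had 55.1, 44.2, 44.0, 43.3 and 40.9 CPM in Angus Fertile heifers 18 to 22 and 30.9, 40.1 and 44.9 CPM as the lowest, median and highest of Angus Sub-Fertile heifers. It had 39.4, 35.9, 37.7, 43.4 and 53.0 CPM in Holstein Fertile heifers 6 to 10 and 40.3, 31.6, 32.7, 37.2 and 36.8 CPM in Holstein Sub-Fertile heifers 1 to 5. Heifers 10 and 18 were far above the rest, and the groups overlapped in both breeds. The log2 difference was 0.22 (standard error 0.073), the highest of the members, and that of ATP5MC3 was 0.12 (standard error 0.060). In complex IV, COX6B1 averaged 136 CPM in Fertile and 127 CPM in Sub-Fertile heifers, a log2 difference of 0.11 (standard error 0.048).

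With the close pairs as blocks, the fertility difference of the members was near 0: the median log2 difference was −0.0018 (all genes 0.023) and 17 of 35 members were higher in Fertile (64% of all genes). Of the 6 pairs of unlike phenotype, heifer 7 was higher than heifer 16 in 32 of 35 members, with a median of 0.14 (all genes 0.020). In the other 5 the medians were 0.017 (heifer 6 over 5), −0.059 (8 over 12), −0.018 (22 over 13), −0.016 (20 over 14) and −0.034 (19 over 15), and 22, 7, 12, 13 and 12 members were higher in the Fertile heifer. The medians of all genes in these 5 pairs were 0.017, −0.0084, 0.016, 0.054 and 0.024, in the same order. Heifers 7 and 8 were Holstein and their partners, heifers 16 and 12, were Angus. In those pairs phenotype and breed cannot be told apart. None of the 4 highest Fertile libraries had a partner of the other phenotype: heifers 9 and 21 were in no close pair, and heifers 10 and 18 were paired with each other. Without heifers 10 and 18 the median was 0.079, with 35 of 35 members higher in Fertile. The listing chose the members by this contrast in the same heifers, so this count is a description.

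**Figure D4:**
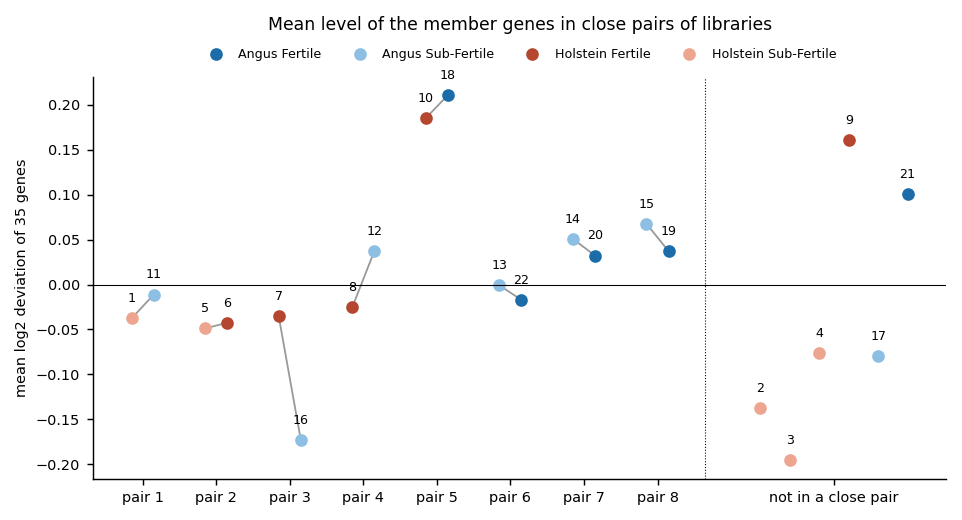
Mean log2 deviation of the 35 members in the 8 close pairs of libraries (joined points) and in the 6 heifers in no close pair, coloured by group, with heifer numbers. Most pairs lie near 0 and close together, whereas heifers 10 and 18 are both high and heifers 9, 21, 2 and 3 stand outside the pairs.

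For breed, which the listing did not use, most members were slightly lower in Holstein heifers, and none passed the adjusted test. The fitted difference was below 0 in 30 of 35 members (54.1% of all genes), with a median of −0.059 on the log2 scale (all genes −0.013). By complex it was below 0 in 15 of 16 members of complex I, 7 of 7 of complex III, 2 of 4 of complex IV and 5 of 7 of complex V. By the quasi-likelihood test of edgeR 0 of 35 members had a Benjamini-Hochberg adjusted p under 0.05 (lowest 0.437), and 6 of 35 (17.1%) had an unadjusted p under 0.05, all lower in Holstein. Of all genes 10.6% had such a p, 6.08% being lower and 4.56% higher in Holstein. DESeq2 gave 4 members at an unadjusted p under 0.05, against 12.9% of all genes, and 0 at an adjusted p under 0.05, against 0.0739% of all genes.

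Those 6 members belong to complex I, apart from COX5B, and 3 of them are named for its iron-sulfur fragment. NDUFS7, a core subunit that carries the last iron-sulfur cluster before ubiquinone (chromosome 7, 43805788 to 43814284), had 55.0, 53.2, 53.0, 47.4 and 48.1 CPM in Angus Fertile heifers 18 to 22 and 32.8, 48.2 and 52.6 CPM as the lowest, median and highest of Angus Sub-Fertile heifers. It had 42.4, 39.9, 45.4, 46.7 and 52.1 CPM in Holstein Fertile heifers 6 to 10 and 43.9, 37.7, 39.6, 44.7 and 42.2 CPM in Holstein Sub-Fertile heifers 1 to 5. The breeds overlapped, with heifer 16 the lowest of all and heifer 10 alone among Holstein heifers above 50 CPM. The log2 difference of Holstein over Angus was −0.16 (standard error 0.070; edgeR, unadjusted p = 0.0269).

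NDUFS3, a core subunit (chromosome 15, 77379153 to 77383888), had 41.9, 47.2, 47.5, 40.2 and 45.8 CPM in Angus Fertile heifers 18 to 22 and 38.6, 40.3, 35.7, 42.8 and 42.0 CPM in Holstein Fertile heifers 6 to 10. In Sub-Fertile heifers it ranged from 35.2 to 46.0 CPM (median 41.5) in Angus and from 36.4 to 41.0 CPM (median 38.5) in Holstein. The groups overlapped, and its log2 difference was −0.13 (standard error 0.051; edgeR, unadjusted p = 0.0191), the smallest p of the members. NDUFS6, an accessory subunit needed late in assembly (chromosome 20, 70839103 to 70844383), differed by −0.13 (standard error 0.053), NDUFB11 of the membrane arm (chromosome X, 85528354 to 85531959) by −0.10 (standard error 0.046) and NDUFB8 of the membrane arm (chromosome 26, 21414963 to 21420753) by −0.092 (standard error 0.043). COX5B, a complex IV subunit on the matrix side (chromosome 11, 2946406 to 2949703), differed by −0.096 (standard error 0.042). Their groups overlapped as well: no member separated the breeds within Fertile or within Sub-Fertile heifers, as 0.443% and 0.148% of all genes did with Angus above Holstein and 1.93% and 0.0296% with Holstein above Angus.

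Within phenotypes the breed difference was as follows. Among Sub-Fertile heifers 35 of 35 members were lower in Holstein (53.1% of all genes), with a median of −0.094 (all genes −0.0099). Among Fertile heifers 21 of 35 were (53.7% of all genes), with a median of −0.027 (all genes −0.021). With the close pairs as blocks the median was 0.0020 (all genes −0.0011), 0 members had an unadjusted p under 0.05 (1.72% of all genes), and NDUFS7 (0.012) and NDUFB11 (0.029) turned to the other sign. The count of 6 also turned on single heifers, as it was 15 without heifer 10 (13.7% of all genes) and 3 without heifer 3, 6, 7, 14 or 15 (8.25% to 9.42% of all genes).

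In the fit over both phenotypes, the 5 members not lower in Holstein were NDUFA1, COX7A2, COX7B, ATP5MK and ATP5PO. Their log2 differences were 0.017 to 0.052, none with an unadjusted p under 0.05 by edgeR. Among Fertile heifers they were higher in Holstein (0.098 to 0.20), and among Sub-Fertile heifers lower (−0.098 to −0.033). The members with the smallest p for the interaction, ATP5PO, COX7B and ATP5MK, were of this set. Members with these signs have an interaction above 0, so this overlap is not a separate observation. The interaction, the fertility difference in Holstein minus that in Angus heifers, was above 0 in 25 of 35 members (47.1% of all genes), with a median of 0.056 (all genes −0.017). By edgeR 0 members had a Benjamini-Hochberg adjusted p under 0.05 (lowest 0.463), and ATP5PO and COX7B, 2 of 35 (5.71%), had an unadjusted p under 0.05, as had 10.4% of all genes, 5.55% with the larger difference in Holstein as in these members. DESeq2 gave 1 such member, against 12.2% of all genes, and 0 at an adjusted p under 0.05.

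ATP5PO, the subunit of the peripheral stalk that confers sensitivity to oligomycin (chromosome 1, 1643628 to 1651039), had 147, 129, 123, 128 and 115 CPM in Angus Fertile heifers 18 to 22 and 118, 126 and 153 CPM as the lowest, median and highest of Angus Sub-Fertile heifers. It had 140, 141, 140, 160 and 137 CPM in Holstein Fertile heifers 6 to 10 and 119, 114, 109, 125 and 140 CPM in Holstein Sub-Fertile heifers 1 to 5. The Angus groups overlapped throughout, and in Holstein heifers the only Sub-Fertile heifer within the Fertile range was heifer 5. Its interaction was 0.26 on the log2 scale (standard error 0.11; edgeR, unadjusted p = 0.0281).

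COX7B, a small subunit of complex IV on chromosome X (74502511 to 74507315), had 116, 98.3, 98.2, 105.4 and 97.3 CPM in Angus Fertile heifers 18 to 22 and 86.9, 104.9 and 123 CPM as the lowest, median and highest of Angus Sub-Fertile heifers. It had 119, 119, 111, 135 and 107 CPM in Holstein Fertile heifers 6 to 10 and 110, 90.04, 80.3, 100 and 111 CPM in Holstein Sub-Fertile heifers 1 to 5. Heifer 9 was the highest and heifer 3 the lowest of all, and the groups overlapped in both breeds. Its interaction was 0.29 (standard error 0.13; edgeR, unadjusted p = 0.0308). ATP5MK, a small protein of the membrane part of ATP synthase (chromosome 26, 23982416 to 23987702), came next with 0.29 (standard error 0.14; unadjusted p = 0.0564). The count of 2 was 0 without heifer 2, 3, 9 or 22 (7.09% to 11.4% of all genes), 1 without heifer 12, 19 or 20 (7.82% to 9.61%), 6 without heifer 18 (14.9%), and 0 with the close pairs as blocks (6.92%).

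**Figure D5:**
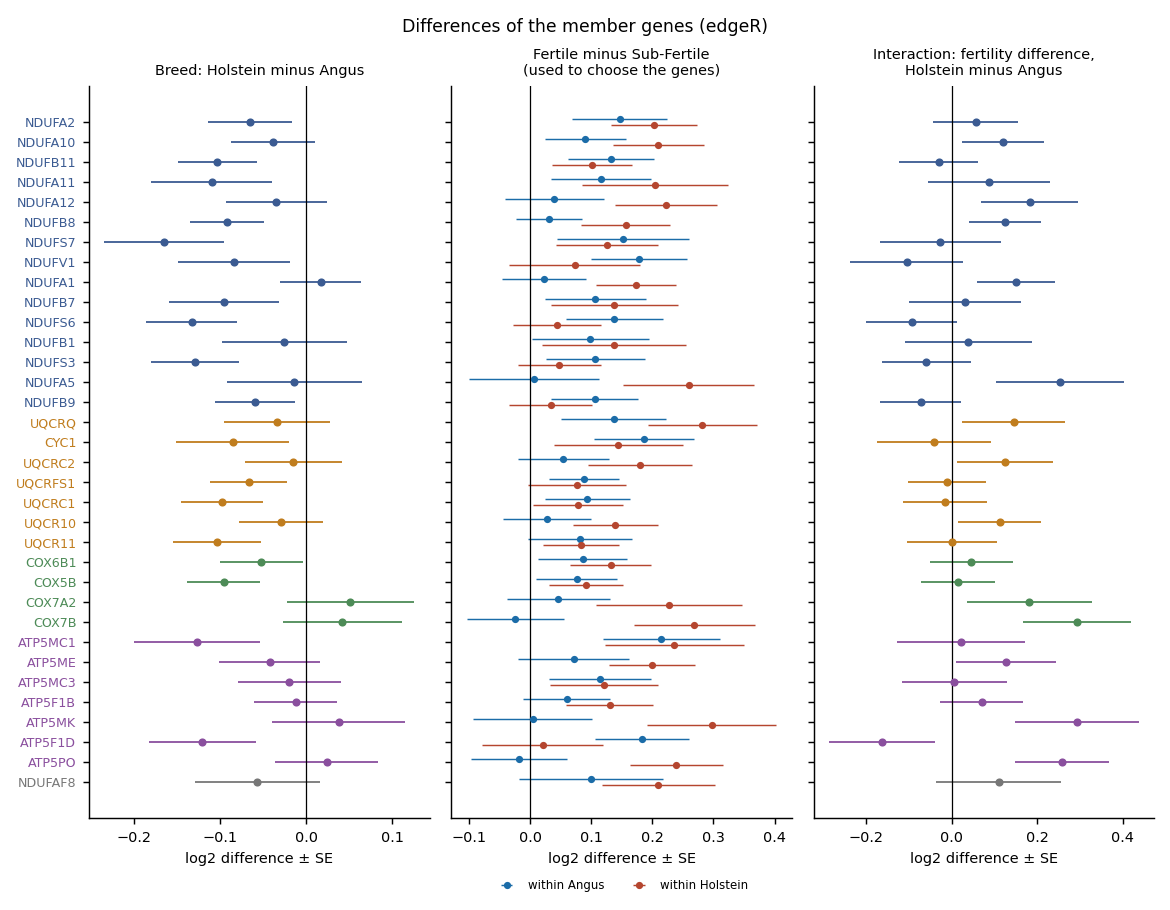
Log2 differences of 34 of the 35 member genes with standard errors from edgeR: Holstein minus Angus (left), Fertile minus Sub-Fertile within each breed (middle, the contrast that chose the genes) and the interaction (right). Gene names are coloured by complex. In the left panel 29 of 34 points lie below 0, and in the right panel ATP5MK, COX7B and ATP5PO lie farthest above 0.

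The members varied together from heifer to heifer within groups. After centring each gene within the 4 groups, the median correlation of log2(CPM + 1) over 22 heifers was 0.515 among the 595 pairs of members, and 569 pairs were above 0. These values are a description, since all members of a heifer share its library and depth. The members were also all chosen from the listing by fertility, unlike the genes at large, and heifers of a close pair were counted separately. Pairs within a complex were as close (median 0.531, 168 pairs) as pairs of different complexes (median 0.513, 427 pairs). Each member against the mean of the others had a correlation from 0.413 in NDUFAF8 to 0.894 in ATP5MC1 (median 0.703), while the 13500 other genes tested had a median of −0.030 with the mean of the members.

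The closest pair was NDUFA11, an accessory subunit of the membrane arm of complex I, and NDUFV1, the core subunit that binds NADH, with a correlation of 0.927. UQCRC1 and NDUFB9 had 0.870, and NDUFV1 and UQCRFS1, the Rieske iron-sulfur protein of complex III, had 0.872. A second set held NDUFA1, COX7A2, COX7B, ATP5MK and ATP5PO, the members not lower in Holstein in the fit over both phenotypes. The 10 pairs among them had a median of 0.803, from 0.539 to 0.887. Their 150 pairs with the other 30 members had a median of 0.288. The first principal component of the members held 50.7% of their variance within groups and the second 16.7%, and the second set these 5 genes at one end against UQCRC1, NDUFS7, NDUFAF8, NDUFB11 and NDUFB9 at the other. The set was named after its values were seen.

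The members lie on 21 chromosomes, with 7 of the 35 on chromosome 7 and 3 on chromosome X. On chromosome 7, ATP5F1D, the delta subunit of the central stalk of ATP synthase, NDUFS7 and UQCR11, a small subunit of complex III, lie within 295500 bases (43683704 to 43979203 in ARS-UCD1.2), and UQCRQ begins 468097 bases beyond UQCR11. The breed differences of ATP5F1D, NDUFS7 and UQCR11 were −0.12, −0.16 and −0.10 on the log2 scale, and that of UQCRQ was −0.034 (standard error 0.061). Pairwise correlations within groups among ATP5F1D, NDUFS7 and UQCR11 were 0.304 to 0.703. The median of these 3 correlations was 0.445, against 0.546 among all members lower in Holstein. All 35 members matched a gene by symbol in a RefSeq table of another assembly, ARS-UCD2.0, and there 10 overlap another gene, a protein-coding one for NDUFA2, ATP5ME, UQCRC2, ATP5MK, NDUFS3 and NDUFB9. Since no source used here gives the strand setting of the counting, reads of these genes and their partners may not be told apart.

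Other genes of the pathway were few, because symbols were at hand only for listed genes. Of 82 nuclear-coded subunit genes listed for the pathway, the 34 with an identifier here were all members. Of 13 coded by mitochondrial DNA only ATP8 had one. ATP8, a subunit of the membrane part of ATP synthase, had 60.9, 48.1, 36.1, 30.4 and 43.1 CPM in Angus Fertile heifers 18 to 22 and 45.8, 58.1 and 132 CPM as the lowest, median and highest of Angus Sub-Fertile heifers. It had 85.3, 84.7, 91.8, 86.1 and 59.9 CPM in Holstein Fertile heifers 6 to 10 and 75.9, 64.1, 68.6, 95.6 and 69.9 CPM in Holstein Sub-Fertile heifers 1 to 5. The Angus Fertile group was the lowest at the median, and heifer 16, the lowest Angus heifer for the nuclear-coded members, was the highest of all. The breed difference had the sign opposite to that of most members, 0.46 on the log2 scale (standard error 0.18; edgeR, unadjusted p = 0.0202, adjusted p = 0.437), and was −0.0058 with the close pairs as blocks. The Fertile mean was lower than the Sub-Fertile mean in Angus (43.7 and 71.4 CPM) and higher in Holstein heifers (81.5 and 74.8 CPM), an interaction of 0.83 (edgeR, unadjusted p = 0.0180), which was 0.21 with the pairs as blocks. The ATP8 and ATP6 reading frames overlap, and libraries were made from polyadenylated RNA.

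Of 58 assembly factors listed, 7 had an identifier and 6 were not members: ACAD9 for complex I, BCS1L for complex III, and COA3, COA4, COA7 and CMC2 for complex IV. ACAD9 had a breed difference of −0.15 (standard error 0.072; edgeR, unadjusted p = 0.0497, adjusted p = 0.469), COA7 −0.18 (standard error 0.10), COA3 −0.082 (standard error 0.053) and CMC2 0.060 (standard error 0.066). With the close pairs as blocks these were −0.13, −0.030, −0.062 and −0.027. BCS1L differed by 0.021 (standard error 0.073) and COA4 by −0.016 (standard error 0.066) without blocks. By edgeR none of the 6 had an adjusted p under 0.05, and 1 had an unadjusted p under 0.05, as had 10.6% of all genes. YY1, the 1 of 11 listed regulators of mitochondrial gene transcription with an identifier, had a breed difference of 0.066 (standard error 0.041).

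The summed level of 3 neutrophil markers was lowest at the median in Holstein Fertile heifers, and transcripts of proliferating cells were highest in heifers 10 and 18. Of 8 neutrophil markers listed 3 had an identifier, CSF3R, MMP9 and TGM3. Their summed level was 118 to 352 CPM (median 209) in Holstein Fertile and 261 to 650 CPM (median 401) in Holstein Sub-Fertile heifers. It was 241 to 390 CPM (median 255) in Angus Fertile and 229 to 527 CPM (median 327) in Angus Sub-Fertile heifers. CSF3R made up most of the sum, with a mean of 283 CPM over all heifers, against 36.4 for TGM3 and 2.13 for MMP9. TGM3 alone was lowest at the median in Angus Fertile heifers (18.9 CPM, against 24.0 in Holstein Fertile). The 4 genes of proliferating cells, MKI67, TOP2A, MCM2 and RRM2, summed to 408 to 1580 CPM (median 667) in Angus Fertile heifers. In Angus Sub-Fertile heifers the sum was 467 to 751 CPM (median 557). In Holstein heifers it was 424 to 1671 CPM (median 787) in Fertile and 483 to 803 CPM (median 616) in Sub-Fertile heifers. The groups overlapped in both breeds. MKI67 was at 971 CPM in heifer 10 and 895 CPM in heifer 18, at 470 CPM in heifer 9, and at 456 CPM or less at the median of every group. ITGA2B and GP9, the 2 of 6 platelet markers with an identifier, summed to 33.1 to 73.1 CPM over all groups, with group medians of 57.7 in Angus Fertile, 44.3 in Angus Sub-Fertile, 48.98 in Holstein Fertile and 45.1 in Holstein Sub-Fertile heifers. BANK1, the 1 of 6 B cell markers with an identifier, had group medians of 310 CPM in Angus Fertile, 348 in Angus Sub-Fertile, 386 in Holstein Fertile and 409 in Holstein Sub-Fertile heifers. CCR3 and FCER1A, the 2 of 5 eosinophil and basophil markers, summed to 31.3 to 73.4 CPM over all groups. The log2 difference, Fertile minus Sub-Fertile, was 0.32 (standard error 0.18) for CCR3 and −0.28 (standard error 0.16) for FCER1A. Of the lists for monocytes, T cells, natural killer cells, red cells and white cells in general no gene had an identifier, so the label of the cells could not be checked against them. All these markers came from the listing ordered by the p-value for fertility, so they too were selected on Fertile against Sub-Fertile. Their values by phenotype are a description. The part of these cells in the differences of the members was not tested.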

How the data were processed

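The authors aligned reads of polyadenylated RNA (stranded mRNA kit) to ARS-UCD1.2 with HISAT2, filtered them with SAMtools, removed duplicates with biobambam2, and then used featureCounts to count the fragments of Ensembl genes. Tool versions and the strand setting were not given in the sources at hand. The file deposited holds raw counts for 27607 genes. Symbols, coordinates and transcript lengths came from annotation columns of the study's listing (1401 rows available, 1229 with a symbol). In the authors' code the length kept for a gene is that of its longest transcript. The study's own fold changes and p-values were not used.

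Genes with CPM above 1 in at least 5 heifers (13535) were fitted in edgeR 4.0.16 (R 4.3.3) with the quasi-likelihood test, total counts as library sizes, robust estimation and terms for breed and fertility. The interaction was added in another fit, and p-values were Benjamini-Hochberg adjusted over all genes. The standard error of a log2 difference is its size over the root of its F statistic. Correlations and deviations used log2 of CPM plus 1. A close pair is 2 heifers each nearest to the other, with a biological coefficient of variation (genes with mean CPM above 20) under 0.5 of the median. Alternatives were TMM factors, DESeq2 1.42.0, other filters, estimation that was not robust, covariates, blocks and leaving out heifers. The fit was tested on simulated data.

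The members, the lists of pathway genes and cell markers, and the tests were chosen with earlier results of these data known. Genes are named by rule: the first 8 members of the listing, the 6 with the smallest breed p, the 3 with the smallest interaction p, the highest and lowest per length of each complex, ATP5MC1, ATP5MC3, and up to 4 others of each pathway list by breed p. 1 member that the rule names is not reported here by name, though sums and counts hold it. Others were named after their values were seen. Each heifer is 1 library, so p-values measure the spread between heifers as labelled.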

Additional observations from a re-analysis of the deposited data

Results flagged for a closer look

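In all, 116 groups of heifers were tested for a value far from the others (Dixon's test at 95%). The test flags about 1 group in 20 by chance, and 6 groups were flagged, a share near that rate. In Angus Fertile heifers, heifer 18 was high for ATP5MC1 (55.1 CPM, the next at 44.2) and for UQCRC2, a core protein of complex III (126 CPM, the next at 100.1). In Holstein Fertile heifers, heifer 9 was high for ATP5PO (160 CPM, the next at 141) and for the sum of the complex IV members (530 CPM, the next at 461). In Angus Sub-Fertile heifers, heifer 16 was low for NDUFAF8 (8.44 CPM, the next at 11.5), which is also the sum of the assembly factors, as NDUFAF8 is the only one. Heifer 18 is in a close pair with heifer 10 and heifer 16 with heifer 7, whereas heifer 9 is in none.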

How the results depend on the processing

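The median differences kept their sign under all alternatives except the close pairs as blocks, which gave a breed median of 0.0020, a fertility median of −0.0018, 17 members higher in Fertile, and 0 members at an unadjusted p under 0.05 for breed and for the interaction. There the breed differences of NDUFS7 (0.012) and NDUFB11 (0.029) also turned. Elsewhere the fertility count was 35, apart from 33 in Angus heifers alone, for the contrast by which the members were listed.

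The count of members with an unadjusted p under 0.05 for breed, 6, was 3 with TMM factors (11.6% of all genes), with log2 total counts as a covariate (7.99%) or without a fertility term (10%), 2 with the first principal component as a covariate (3.61%) or in Fertile heifers alone (15.1%), 1 in Sub-Fertile heifers alone (5.05%) and 10 without heifers 10 and 18 (13.4%). The interaction count, 2, was 1 with TMM factors (11.7%), DESeq2 (12.2%) or the first principal component (9.86%), and 4 without heifers 10 and 18 (17.3%). With each heifer left out in turn, the breed count ranged from 3 to 15 and the interaction count from 0 to 6. The causes were not tested.

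The same fits gave breed medians of −0.075 to −0.047, fertility medians of 0.093 to 0.13, interaction medians of 0.015 to 0.099 and median correlations of 0.484 to 0.554. For single genes, 207 of 297 values kept their side of the threshold, 83 lost it, 5 passed it and 2 reversed. Levels with RefSeq transcript lengths were not run, since no table held them. Depth limits the precision least for ATP5F1B and most for NDUFAF8 (111 counts at the lowest).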

Other observations

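Among genes outside the members that carry a symbol here, those whose log2 CPM followed the mean of the members most closely within groups were SLC25A3, the carrier that brings phosphate into mitochondria for ATP synthesis (correlation over 22 heifers 0.848), COPS9, a small subunit of the COP9 signalosome (0.836), PSMB3, a subunit of the proteasome (0.819), MDH2, the mitochondrial malate dehydrogenase (0.813), and BOLA3, which acts in the delivery of iron-sulfur clusters (0.808). These genes were named after their values were seen, and the symbols cover only listed genes.

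SLC25A3 had 184 ± 22.4 CPM in Angus Fertile (SD, n = 5), 171 ± 12.7 in Angus Sub-Fertile (n = 7), 181 ± 24.2 in Holstein Fertile (n = 5) and 162 ± 10.98 in Holstein Sub-Fertile heifers (n = 5), with its highest levels in heifers 18 (221 CPM) and 10 (219 CPM). MDH2 had 208 ± 28.4, 189 ± 17.6, 199 ± 33.8 and 181 ± 12.7 CPM in these groups, and was likewise highest in heifers 10 (257 CPM) and 18 (256 CPM). The 4 genes of proliferating cells had correlations of 0.563 to 0.682 with the mean of the members. ITGA2B and GP9 of platelets had 0.569 and 0.509, and CCR3 had 0.365. The other markers were negative: CSF3R −0.364, MMP9 −0.400, TGM3 −0.278, BANK1 −0.197 and FCER1A −0.511. These values are descriptions over libraries that share depth and cell composition.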
